A study of Mus musculus with 6 samples.

Results

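The genes measured here carry out or control the breakdown of the branched-chain amino acids leucine, isoleucine and valine. They were the 10 genes *Bcat1*, *Bcat2*, *Bckdha*, *Bckdhb*, *Bckdk*, *Dbt*, *Ppm1k*, *Ivd*, *Mccc1* and *Hibadh*, and every probe that the array design names for exactly one of them was taken. This gave 13 of the 55681 probes other than controls, 3 for *Bcat1*, 2 for *Mccc1* and 1 for each of the others, and all 13 passed the filter on dim probes, as did 27590 probes in all. RNA came from heart tissue of male C57BL/6 mice, 3 kept on a standard chow (normal diet, ND) and 3 on a high fat diet (HFD) in which fat gave 60% of the kcal. Both diets were fed for 4 months from the age of 4 weeks, and the labels name no altered gene and no drug. Each heart was read on its own 1-colour Agilent array. Both groups are inbred males of a single strain and feeding time. In RNA of such tissue, fewer cells of a type and less RNA per cell cannot be told apart.

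Breakdown begins with the transfer of the amino group to 2-oxoglutarate by a branched-chain aminotransferase, BCAT2 in mitochondria or BCAT1 in the cytosol. The resulting keto acids are committed to oxidation by the branched-chain keto acid dehydrogenase complex of the mitochondrial matrix, built from an E1 part (BCKDHA and BCKDHB), the E2 core (DBT) and the E3 enzyme (DLD) that other dehydrogenases share. The kinase BCKDK phosphorylates E1 and switches the complex off, and the phosphatase PPM1K removes the phosphate and switches it on. Beyond the complex the 3 carbon chains part, and IVD and MCCC1 act on leucine whereas HIBADH acts on valine. The heart oxidises these amino acids, and a weaker breakdown of them has been described in failing hearts.

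The arrays read each transcript through probes of 60 bases, and all genes but *Bcat1* and *Mccc1* were read by a single probe. A stretch of 30 bases is shown for the 4 genes with an unadjusted p below 0.05 in limma. It is written from 5′ to 3′ in the sense of the transcript, so that the measured piece of RNA can be found.
*Bcat2*: tcctggtgttcaagggagaaccttggcttc
*Bckdhb*: ggtgttgtattcAATAAAgccaaattacat
*Dbt*: atgggcataaaattaatttatacagaaatg
*Ppm1k*: ttcattatgagaatggcttaagcaggaata
On mm9, the build of the array files, these stretches lie at chr7:52844940-52844969 (plus strand), chr9:84017811-84017840 (plus), chr3:116252015-116252044 (plus) and chr6:57456920-57456949 (minus). The capitals in the *Bckdhb* stretch mark AATAAA, the letters of the common polyadenylation signal, which 1 of the 13 probes held. The *Ppm1k* probe and the brighter *Mccc1* probe had a stop codon in each of the 3 reading frames of the sense strand, and the other 11 did not. Where the probes lie within the exons was not analysed here. The transcript that the array names for each probe (NM_009737, NM_199195, NM_010022 and NM_175523 for the genes shown) was listed under the same gene by RefSeq for all 10 genes.

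Promoter sequence of 9 of the 10 genes was taken from RefSeq (GRCm38.p6), as 12 windows of the 250 bases before an annotated start, and *Dbt* had no entry. The windows were searched on both strands for AGGTCA, the half-site of many nuclear receptors. It occurred in 3 of the 12 windows, those of *Bckdhb*, *Ppm1k* and the second start of *Bcat1*, and in 14.0% of the 32851 windows of all genes. Its nearest match began 119 bases before the *Bckdhb* start, 124 before the *Ppm1k* start and 174 before the *Bcat1* start. The *Bckdhb* and *Ppm1k* windows are shown with these letters in capitals, at chr9:83924887-83925136 (plus strand) and chr6:57535488-57535737 (minus).
*Bckdhb*: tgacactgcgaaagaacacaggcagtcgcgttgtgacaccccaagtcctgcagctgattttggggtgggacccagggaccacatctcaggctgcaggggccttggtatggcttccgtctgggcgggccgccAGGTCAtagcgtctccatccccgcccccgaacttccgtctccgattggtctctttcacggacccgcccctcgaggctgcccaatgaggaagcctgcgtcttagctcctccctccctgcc
*Ppm1k*: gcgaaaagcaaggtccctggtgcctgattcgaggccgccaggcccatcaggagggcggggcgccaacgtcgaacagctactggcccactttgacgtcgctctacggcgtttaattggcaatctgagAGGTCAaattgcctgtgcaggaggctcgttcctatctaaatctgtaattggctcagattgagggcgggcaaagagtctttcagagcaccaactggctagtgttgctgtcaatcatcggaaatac
The letters CACCC, which KLF factors bind, occurred in 8 of the 12 windows and in 52.0% of all windows. The letters CCAAT, the core of NF-Y sites, occurred in 7 of the 12 and in 33.8% of all. *Bckdha* held none of the 3 motifs in its window, and *Bcat2* held CACCC in 1 of its 2 windows and neither of the others. A match is a string of letters and says nothing of binding in these hearts.

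A single slide carried the 6 arrays, its row 1 with HFD 1 and HFD 2 and its row 2 with HFD 3 and the 3 ND hearts. The software rated 49.2% to 53.0% of the probes as well above background, depending on the array, and no spot was saturated. Levels are given as the log2 of the background-subtracted intensity minus the log2 of the 75th percentile of that array, so that a level of 0 is as bright as that percentile, and the level of one probe cannot be set against that of another. A difference is the mean log2 level of HFD minus that of ND (log2 fold change) with its standard error from limma, and p-values are two-sided.

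Transcripts of the pathway were more often lower than higher in HFD hearts, by small amounts, and none passed the adjustment for all probes tested. The genes were chosen with earlier results of these data known, so that the counts below are a description and no test. The log2 fold change was negative for 12 of the 13 probes, with a median of −0.12 against −0.0080 over all 27590 probes, of which 52.0% were lower. With the slide row in the fit, where HFD 3 is the only HFD heart compared with ND, 7 of the 13 were negative, and without HFD 1 it was 10 of the 13. Before adjustment, 4 of the 13 probes (30.8%) had a p below 0.05 in limma, and all 4 were lower in HFD, namely those of *Bcat2*, *Bckdhb*, *Dbt* and *Ppm1k*. Of all probes tested, 11.9% had such a p, 6.63% lower and 5.24% higher in HFD. For 5 of the 13 probes, the same 4 and that of *Ivd*, the HFD hearts were the 3 lowest of the 6, as they were for 11.1% of all probes. After Benjamini-Hochberg adjustment over all probes, 0 of the 13 passed in limma, where 4 of all 27590 (0.0145%) did, and the methods' t-test likewise called 0 of the 13 after adjustment and 4 before it. Taking the probe of highest mean level for every gene, the fold change was negative for all 10 genes, with a median of −0.24. Among them *Bckdk* was at −0.010, and *Bcat1* counts through 1 of its 3 probes, all dim. The number was 9 of the 10 with quantile normalization, with normexp background correction, in the authors' log2 table and without ND 1. It was 8 without HFD 1 and 6 with the slide row in the fit. Of all genes, with 1 probe each, 53.2% were lower, and 7.01% were lower with a p below 0.05.

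**Figure D1:**
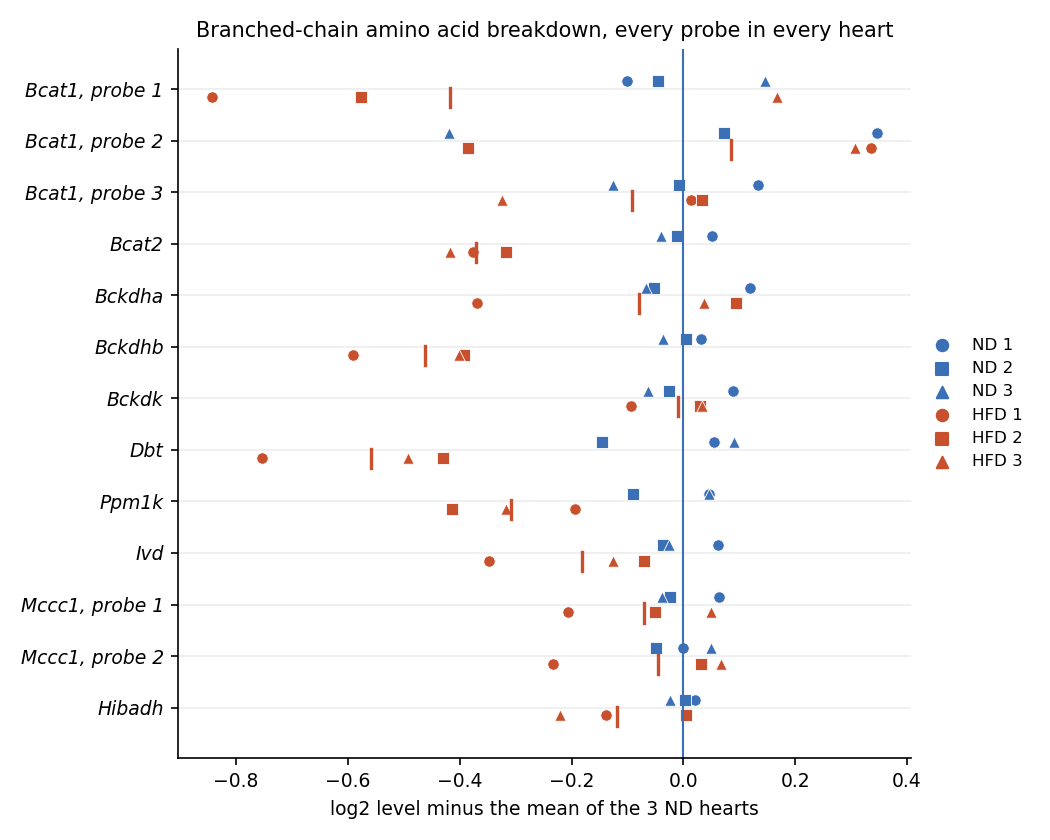
Log2 level of each of the 13 probes (rows) in each heart, with the mean of the 3 ND hearts of that probe set to 0 on the horizontal axis. Blue points are ND hearts and red points HFD hearts, circles, squares and triangles are hearts 1, 2 and 3 of a diet, and the short red line is the HFD mean. For *Bcat2*, *Bckdhb*, *Dbt*, *Ppm1k* and *Ivd* all 3 red points lie below all 3 blue ones.

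The first step was read for both aminotransferases. *Bcat2*, the mitochondrial and muscle form, had levels of 4.06, 4.00 and 3.97 in ND 1, ND 2 and ND 3 and of 3.63, 3.69 and 3.59 in HFD 1, HFD 2 and HFD 3. The hearts of a diet lay close together, and the lowest ND heart was 0.28 above the highest HFD heart. The mean was 4.01 ± 0.046 (SD, n = 3) in ND and 3.64 ± 0.050 in HFD, which puts HFD hearts at 77.4% of the ND level. The log2 fold change was −0.37 (SE 0.067, unadjusted limma p of 0.00148, adjusted p = 0.163 in limma), and its p ranked 251 among all probes. The deposited linear intensities ran from 7464 to 8144 in ND hearts and from 5856 to 6550 in HFD hearts.

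*Bcat1*, the cytosolic form, was read close to the background. Its intensities lay between 21.6 and 93.2 over the 3 probes and 6 hearts, and for 2 of the probes only 2 of the 3 ND hearts were well above background. Probe A_66_P127969 had levels of −2.81, −2.76 and −2.57 in ND and −3.55, −3.29 and −2.54 in HFD, with HFD 3 above every ND heart. Its log2 fold change was −0.42 (SE 0.26, unadjusted limma p of 0.160, adjusted p = 0.595 in limma). The other probes, A_55_P1960157 and A_55_P2079669, had log2 fold changes of 0.085 (SE 0.27) and −0.093 (SE 0.13), and their diets overlapped. The 3 probes therefore gave no common direction.

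Of the subunits of the dehydrogenase complex, *Bckdhb* and *Dbt* were lower in every HFD heart, while *Bckdha* overlapped. *Bckdha*, which encodes E1 alpha with the serines that the kinase phosphorylates, had levels of 7.08, 6.91 and 6.89 in ND and 6.59, 7.05 and 6.99 in HFD. HFD 1 was the lowest heart, and HFD 2 and HFD 3 lay within the ND range. The log2 fold change of *Bckdha* was −0.080 (SE 0.14, 95% confidence interval −0.43 to 0.27, adjusted p = 0.866 in limma).

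*Bckdhb*, which encodes E1 beta, had levels of 5.61, 5.58 and 5.54 in ND and 4.98, 5.18 and 5.17 in HFD. The ND hearts lay within a narrow band and HFD 1 was again the lowest. The mean was 5.57 ± 0.034 in ND and 5.11 ± 0.11 in HFD (SD, n = 3), a log2 fold change of −0.46 (SE 0.081, unadjusted limma p of 0.00121, adjusted p = 0.155 in limma) or 72.6% of the ND level. It had the smallest p of the 13 probes, at rank 216 of all probes.

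*Dbt*, the E2 core that holds the complex together and carries the lipoyl group, had the largest difference among the 13. It had levels of 0.22, 0.023 and 0.26 in ND and −0.59, −0.26 and −0.33 in HFD. The diets were separated by 0.29, between ND 2 and HFD 2. The mean was 0.17 ± 0.13 in ND and −0.39 ± 0.17 in HFD (SD, n = 3), so that HFD hearts were at 67.9% of the ND level. The log2 fold change was −0.56 (SE 0.12, unadjusted limma p of 0.00295, adjusted p = 0.213 in limma), with intensities from 491 to 570 in ND hearts and from 344 to 434 in HFD hearts.

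For the regulators of the complex, the kinase overlapped between the diets and the phosphatase was lower in every HFD heart. *Bckdk*, the kinase, had levels of 3.54, 3.43 and 3.39 in ND and 3.36, 3.48 and 3.49 in HFD, which overlap. Its log2 fold change was −0.010 (SE 0.078, 95% confidence interval −0.20 to 0.18, adjusted p = 0.976 in limma), and its sign turned with the scaling, to 0.011 with quantile normalization and 0.016 with normexp background correction. *Ppm1k*, the phosphatase, had levels of 3.005, 2.870 and 3.005 in ND and 2.77, 2.55 and 2.64 in HFD. The HFD hearts were the 3 lowest, with a gap of 0.10 between ND 2 and HFD 1. The mean was 2.96 ± 0.078 in ND and 2.65 ± 0.11 in HFD (SD, n = 3), a log2 fold change of −0.31 (SE 0.087, unadjusted limma p of 0.0121, adjusted p = 0.288 in limma) or 80.8% of the ND level.

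Whether the genes of a pair differed from each other in their response was measured within each heart. The log2 level of *Bckdk* minus that of *Ppm1k* was 0.54, 0.56 and 0.39 in ND and 0.59, 0.94 and 0.84 in HFD. Each HFD heart was above each ND heart, although HFD 1 was only just above ND 2. The mean was 0.49 ± 0.094 in ND and 0.79 ± 0.18 in HFD (SD, n = 3), a shift of 0.30 (exact permutation test, two-sided, p = 0.10, the smallest that 3 hearts against 3 allow, so that no single comparison of this kind can reach 0.05). Only the shift between diets can be read, since the probes may differ in brightness for the same amount of RNA. This shift follows from the log2 fold changes of −0.010 for *Bckdk* and −0.31 for *Ppm1k*, and is no separate result. A pair of subunit differences was chosen after the values of these subunits were seen, and is given as a description with no test. *Bckdhb* minus *Bckdha* shifted by −0.38 and *Dbt* minus *Bckdha* by −0.48, which restates the separation of *Bckdhb* and *Dbt* and the overlap of *Bckdha*.

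**Figure D2:**
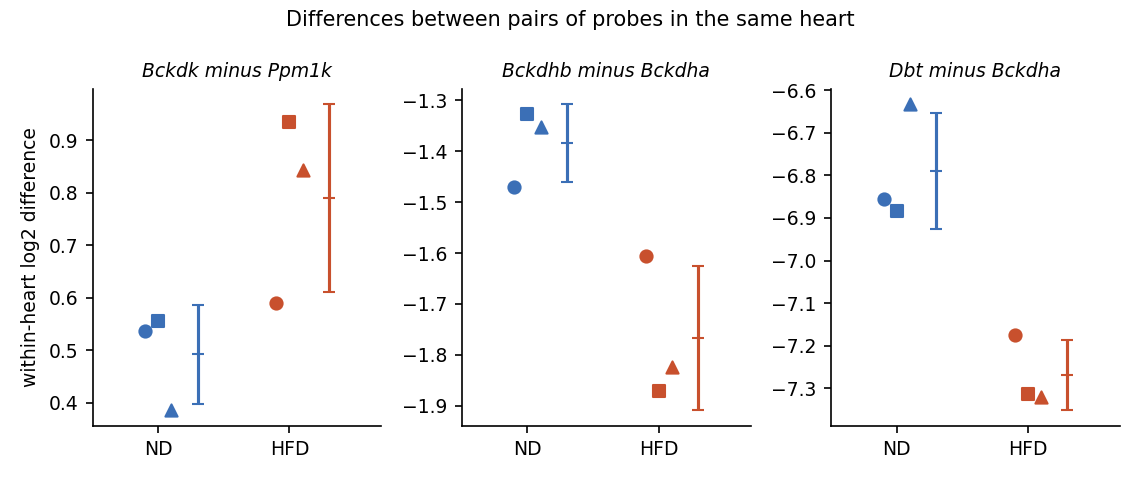
Difference between the log2 levels of 2 probes in the same heart (vertical axis, log2 units, a scale of its own in each panel) for ND and HFD hearts. Points are hearts (circle, square and triangle for 1, 2 and 3) and the bar beside them is the mean with its SD. The HFD hearts lie above the ND hearts for *Bckdk* minus *Ppm1k* (shift 0.30) and below them for both subunit differences (−0.38 and −0.48).

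For *Ivd*, *Mccc1* and *Hibadh*, which act further down the pathway, the log2 fold changes lay between −0.18 and −0.045. Other enzymes beyond the complex, given below, ranged more widely. *Ivd*, which oxidises isovaleryl-CoA from leucine, had levels of 5.90, 5.80 and 5.81 in ND and 5.49, 5.77 and 5.71 in HFD. The HFD hearts were all below the ND hearts, but the gap between ND 2 and HFD 2 was only 0.035, and the log2 fold change was −0.18 (SE 0.094, unadjusted limma p of 0.102, adjusted p = 0.516 in limma). *Mccc1*, which encodes the biotin-carrying subunit of methylcrotonyl-CoA carboxylase, overlapped with both probes. Its brighter probe, A_55_P1953899, was at 4.53, 4.44 and 4.43 in ND and 4.26, 4.41 and 4.51 in HFD (log2 fold change −0.070, SE 0.089), and the other, A_55_P1970414, had −0.045 (SE 0.10). Both *Mccc1* probes had their lowest level in HFD 1. *Hibadh*, the 3-hydroxyisobutyrate dehydrogenase of valine breakdown, had levels of 6.38, 6.37 and 6.34 in ND and 6.23, 6.37 and 6.14 in HFD. HFD 2 was as high as the ND hearts and the log2 fold change was −0.12 (SE 0.080, unadjusted limma p of 0.191, adjusted p = 0.624 in limma).

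The HFD hearts did not contribute equally. With one probe per gene, HFD 1 was the lowest of the 6 hearts for 7 of the 10 genes, and for 27.0% of all genes tested. It was below every ND heart for all 10 genes (40.9% of all genes), HFD 2 for 7 of them (27.9% of all) and HFD 3 for 6 (33.0% of all). The median difference from the ND mean over the 10 genes was −0.36 in HFD 1, −0.19 in HFD 2 and −0.17 in HFD 3. ND 1 was the highest heart for 8 of the 10 genes (18.2% of all). Without HFD 1 the log2 fold changes of *Bcat2*, *Bckdhb*, *Dbt* and *Ppm1k* were −0.37, −0.40, −0.46 and −0.37, each with an unadjusted p below 0.05 in limma, whereas *Bckdha* was at 0.065 in place of −0.080.

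Row 2 of the slide was the only one that held both diets, with HFD 3 as its single HFD heart. With one probe per gene, HFD 3 was there below all 3 ND hearts for *Bcat2*, *Bckdhb*, *Dbt*, *Ppm1k*, *Ivd* and *Hibadh*. Once the slide row entered the fit, the fold change was that of HFD 3 alone against the mean of ND, with the spread taken from the ND hearts and from HFD 1 and HFD 2, so that the lone heart is assumed to vary like the others. The log2 fold changes were −0.42 for *Bcat2* (unadjusted limma p of 0.00860), −0.40 for *Bckdhb* (unadjusted limma p of 0.0198), −0.49 for *Dbt* (unadjusted limma p of 0.0378) and −0.32 for *Ppm1k* (unadjusted limma p of 0.0647, no longer below 0.05). The same fit gave positive values for *Bckdha* (0.037), *Bckdk* (0.033), both *Mccc1* probes (0.049 and 0.067) and probe A_66_P127969 of *Bcat1* (0.17). The part of the row in the differences of HFD 1 and HFD 2 cannot be told apart from the diet.

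**Figure D3:**
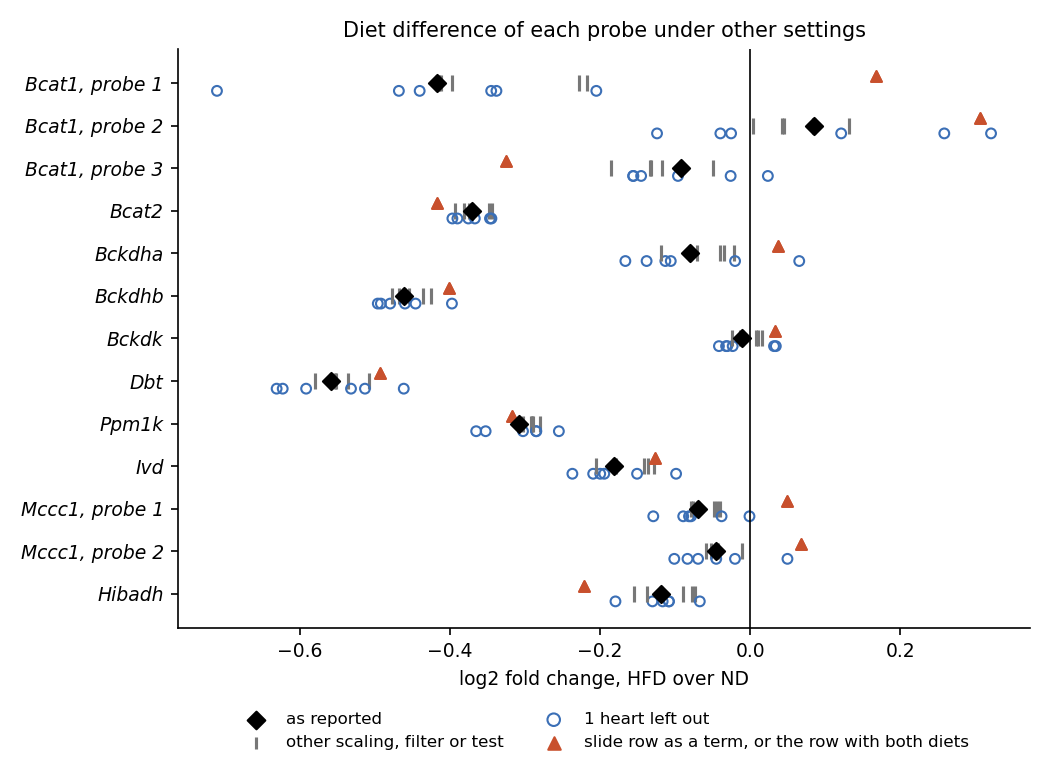
Log2 fold change (HFD over ND, horizontal axis) of each of the 13 probes as reported (black diamond), under other scalings, filters and tests (grey bars), with 1 heart left out (open blue circles) and with the slide row as a term or only the row with both diets (red triangles). *Bcat2*, *Bckdhb*, *Dbt*, *Ppm1k*, *Ivd* and *Hibadh* stay left of 0 throughout, and *Bckdk* lies between −0.042 and 0.034.

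A list of 18 other enzymes of the pathway, *Abat* among them, was set beside the 10 genes. It too was chosen with earlier results of these data known, so that its counts are a description. All 18 were tested, and 14 were lower and 4 higher in HFD. Their median log2 fold change was −0.15. Over all genes, 53.2% were lower, and the median was −0.013. At an unadjusted p below 0.05 in limma, 4 of the 18 were lower (7.01% of all genes). Higher with such a p was 1 of the 18, as were 1022 of all 20571 genes. None of the 18 passed the adjustment. The 4 lower ones were *Abat*, *Acadsb*, *Aldh6a1* and *Mut*. *Acadsb*, the dehydrogenase of isoleucine and other short branched chains, had levels of 3.60, 3.46 and 3.51 in ND and 3.11, 3.29 and 3.17 in HFD. Its diets did not overlap, at a log2 fold change of −0.33 (SE 0.081, unadjusted limma p of 0.00644, adjusted p = 0.254 in limma). *Aldh6a1*, the methylmalonate semialdehyde dehydrogenase at the end of valine breakdown, was lower with both of its probes, at −0.26 (SE 0.083) and −0.22 (SE 0.063). *Mut*, the mutase that makes succinyl-CoA, had −0.17 (SE 0.064, adjusted p = 0.393). *Abat*, a transaminase best known for breaking down GABA, had the largest value of the list, −2.01 (SE 0.35, adjusted p = 0.155).

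The 4 genes of the list with a positive value were *Hadha*, *Acat1*, *Hadh* and *Acad8*, all but *Hadha* named after their values were seen. *Hadha*, the alpha subunit of the trifunctional protein of fatty acid oxidation, had levels of 5.53, 5.53 and 5.37 in ND and 5.72, 6.05 and 5.99 in HFD. Each HFD heart was above each ND heart, with a log2 fold change of 0.44 (SE 0.11, unadjusted limma p of 0.00675, adjusted p = 0.258 in limma). *Acat1* and *Hadh*, which act on both kinds of substrate, had 0.23 (SE 0.11) and 0.17 (SE 0.11), and *Acad8*, specific to valine, 0.0063 (SE 0.098). *Dld*, the E3 part shared with the pyruvate and 2-oxoglutarate dehydrogenases, had −0.11 (SE 0.074), and its dimmer probe had 0.081 (SE 0.084). *Mccc2*, the partner subunit of MCCC1, had −0.16 (SE 0.093, adjusted p = 0.571).

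**Figure D4:**
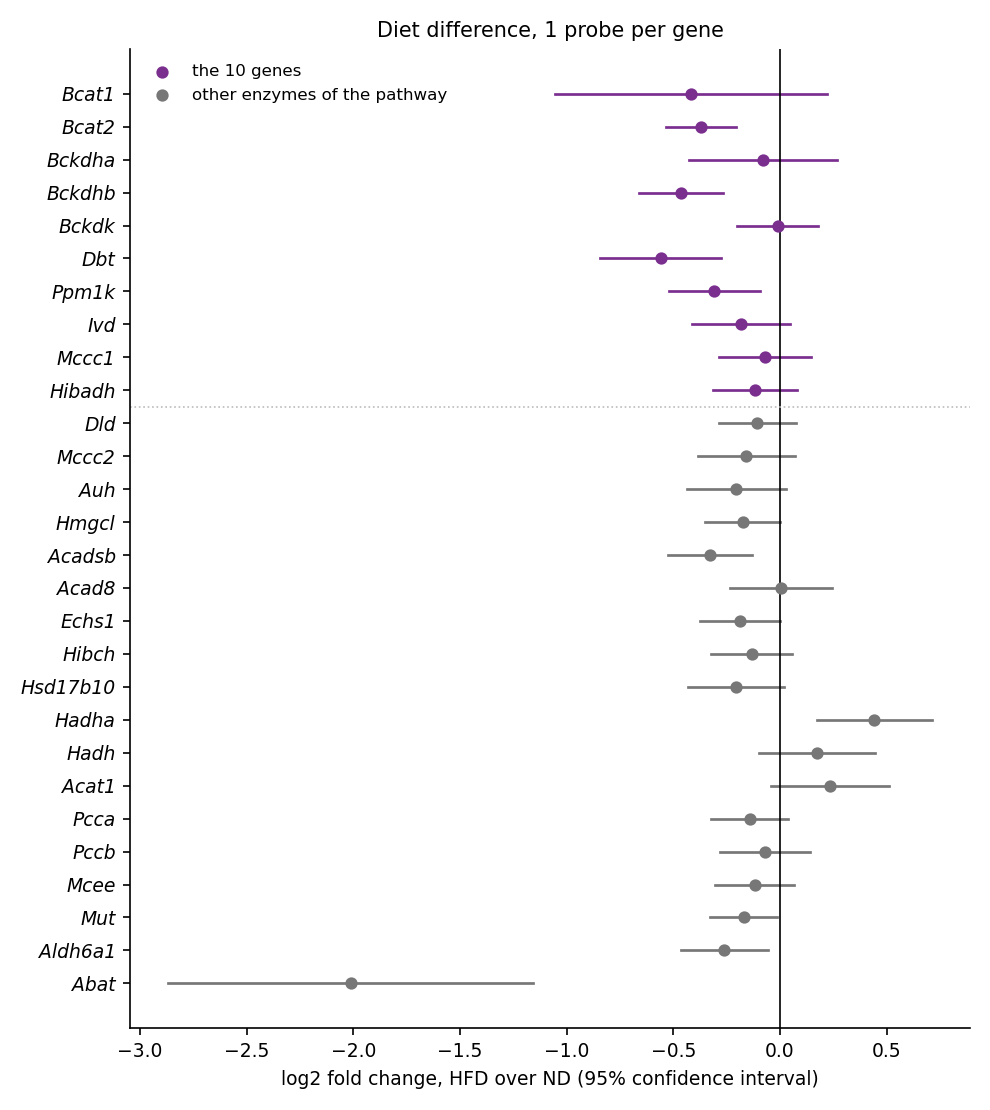
Log2 fold change (HFD over ND, horizontal axis) with its 95% confidence interval from limma for the brightest probe of each of the 10 genes (purple, above the dotted line) and of 18 other enzymes of the pathway (grey). The intervals of *Bcat2*, *Bckdhb*, *Dbt* and *Ppm1k* lie below 0, as do those of *Acadsb*, *Mut*, *Aldh6a1* and *Abat*, and that of *Hadha* lies above 0.

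Genes that serve the pathway were counted in the same way, in lists also chosen with earlier results of these data known. Over all genes, 53.2% were lower, and 7.01% were lower with an unadjusted p below 0.05 in limma. Of 10 genes for cofactors and electron transfer, 6 were lower and 4 higher, with a median of −0.081. *Mmab*, which makes the cobalamin cofactor of the mutase, was lower with each of its 3 probes, at −0.40 (SE 0.075, unadjusted limma p of 0.00169), −0.32 (SE 0.10) and −0.31 (SE 0.072), with no overlap between diets for any of them. *Mmachc*, which processes cobalamin in the cytosol, had −0.19 (SE 0.065, unadjusted limma p of 0.0262). Of 8 carriers of these amino acids 6 were tested, 4 lower and 2 higher, with a median of −0.086. *Slc7a8*, a light chain of an amino acid exchanger, was the carrier with an unadjusted p below 0.05, at −0.38 (SE 0.11, adjusted p = 0.307 in limma). It was dim, with levels of −2.62, −2.38 and −2.49 in ND and −2.97, −2.97 and −2.69 in HFD, and its value was −0.19 with the slide row in the fit.

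Of 6 regulators of the pathway, 4 were lower and 2 higher, with a median of −0.071. An unadjusted p below 0.05 in limma was reached by 1 of them (16.7%), lower in HFD, against 7.01% of all genes. *Klf15*, a transcription factor known to drive these genes in heart, had levels of 2.35, 2.17 and 2.03 in ND and 1.55, 2.09 and 2.01 in HFD. HFD 1 stood below the rest and the others overlapped or nearly so, with a log2 fold change of −0.30 (SE 0.17, unadjusted limma p of 0.126, adjusted p = 0.555 in limma) that was −0.13 without HFD 1. *Foxo1*, a factor that insulin signalling holds out of the nucleus, had −0.24 (SE 0.073, adjusted p = 0.316) with its brighter probe and −0.15 (SE 0.11) with the other. Of 10 genes of leucine sensing 9 were tested, 4 lower and 5 higher, with a median of 0.058. Here 1 (11.1%) was lower with an unadjusted p below 0.05 in limma, against 7.01% of all genes. *Sesn1*, a relative of the leucine sensor SESN2, was at 5.08, 5.01 and 5.02 in ND and 4.30, 4.82 and 4.50 in HFD. The HFD hearts were all below the ND hearts, with a log2 fold change of −0.50 (SE 0.14, unadjusted limma p of 0.0109, adjusted p = 0.285 in limma).

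The related pyruvate and 2-oxoglutarate dehydrogenases and their kinases and phosphatases gave 6 lower and 5 higher of 11 genes, with a median of −0.012. *Pdp2*, a phosphatase that switches pyruvate dehydrogenase on as PPM1K does for the branched-chain complex, was at 2.63, 2.70 and 2.92 in ND and 2.04, 1.71 and 2.11 in HFD. Its log2 fold change was −0.80 (SE 0.14, unadjusted limma p of 0.00106, adjusted p = 0.149 in limma), and its dimmer probe had −0.56 (SE 0.14). *Pdp2* was the only gene of this list with an unadjusted p below 0.05 in limma. That is 9.09% of the 11, against 7.01% of all genes that were lower with such a p. None of the genes on these lists passed the adjustment in limma.

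Markers of cell types were read beside these values. The 7 cardiomyocyte markers had summed levels (linear, in units of the 75th percentile) of 2810 to 2870 in ND and 2500 to 3050 in HFD, which overlap, and none had an unadjusted p below 0.05. All 6 tested erythroid markers were lower in HFD, 5 with an unadjusted p below 0.05 in limma, as 7.01% of all genes were. The erythroid sum was 622 to 798 in ND and 399 to 554 in HFD. The 4 tested atrial markers summed to 198 to 981 in ND and 56.2 to 1150 in HFD, with the lowest mean level in HFD 2 and the highest in HFD 1. The pieces of tissue thus differed in atrial transcripts, as for *Myl7*, an atrial light chain, with an intensity of 168 in HFD 2 and of 3101 to 46044 in the other hearts. With the mean atrial level as a covariate, a setting added after the data were seen, *Bcat2*, *Bckdhb*, *Dbt* and *Ppm1k* had log2 fold changes of −0.38, −0.48, −0.58 and −0.29, each with an unadjusted p below 0.05 in limma. The 5 tested white adipocyte markers summed to 2.93 to 6.44 in ND and 0.386 to 6.84 in HFD, and *Lep* was not well above background in any heart. Of the 4 liver markers, *Alb* and *Apoa1* were not either. The other 2 were dim, each with an unadjusted p below 0.05 and no overlap between the diets, *Serpina1a* at 0.75 (SE 0.21) and *Ttr* at −0.86 (SE 0.21). The 5 fibroblast markers summed to 335 to 394 in ND and 304 to 391 in HFD. The diets also overlapped in the sums of the 3 tested brown adipocyte markers (761 to 835 in ND, 691 to 817 in HFD), the 4 of skeletal muscle (18.1 to 19.2 and 16.4 to 18.4), the 4 endothelial ones (32.5 to 36.0 and 30.4 to 34.8) and the 4 of macrophages (29.2 to 33.5 and 24 to 29.7). Such sums follow their brightest marker. For the brown adipocyte list this was *Cox7a1*, at mean levels of 9.56 in ND and 9.41 in HFD, and *Ucp1* was not among the tested markers. Whether *Cox7a1* and *Cidea* of this list were read from brown adipocytes or from other cells of the heart was not tested. With 1 probe per marker, 2 brown adipocyte markers were lower and 1 higher, and all 4 of skeletal muscle were lower. Of the fibroblast markers 3 were lower and 2 higher, of the endothelial ones 1 and 3, and of the macrophage ones 2 and 2. Single markers at an unadjusted p below 0.05 in limma, each without overlap, were *Cidea* of brown adipocytes, at 0.33 (SE 0.092), *Tnni2* of skeletal muscle, at −0.41 (SE 0.15), *Pdgfra* of fibroblasts, at −0.30 (SE 0.098), and *Kdr* of endothelium, at −0.26 (SE 0.082) with its brighter probe. The other *Kdr* probe overlapped between the diets, at −0.063 (SE 0.086). None of the macrophage markers had such a p. The part of the markers other than the atrial ones in the differences was not tested.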

How the data were processed

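RNA of 3 ND and 3 HFD hearts was labelled with Cy3 and read on 6 Agilent arrays. The authors' deposited intensities are linear and came from Agilent Feature Extraction (10.7 in the submitters' processing notes, 10.7.1.1 in the file headers), which subtracted background within each array, with no normalization between arrays. The spot and local background intensities, likewise deposited, entered the normexp alternative alone. A second table deposited by the authors holds log2 values, and its making is not given in the sources used here. Every column had a median of 4.56 and ranked the probes as its array did (rho of 1.00, against 0.954 or less with any other array), and the table served as an alternative.

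Controls and flagged outlier spots (127 to 190 on an array) were dropped, and repeated spots averaged. The log2 of each array's 75th percentile (an intensity of 453 to 544) was subtracted from its log2 intensities. Tested were probes that all arrays of one or both groups read well above background, with 2 or more arrays measured per group. Diets were compared in limma 3.58.1 (lmFit, eBayes, Benjamini-Hochberg over 27590 probes) in R 4.3.3, with the packages data.table (1.17.8) and jsonlite (2.0.0). Sequences and figures were handled in Python 3.11.15 with matplotlib 3.10.9. The code was tested on simulated data. Positions are on mm9 as in the array files, and promoter windows come from RefSeq (GRCm38.p6).

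All 13 probes of the 10 genes are reported. From each further list the genes named are those whose brightest tested probe had an unadjusted p below 0.05 with no overlap between diets (where a list has none, its largest change), and in addition *Abat*, *Klf15*, *Dld*, *Mccc2* and *Mut*. The members and lists, and the motifs searched, were chosen with earlier results of these data known. Each array held values of its own (Pearson's r between arrays at most 0.996), and the number of arrays limits the precision. The labels tie each sample to a diet and number its replicates, and p-values measure the spread between these hearts. Alternatives were other scalings, filters and tests, the replicate number as a block, the slide row and each heart left out.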

Additional observations from a re-analysis of the deposited data

How the results depend on the processing

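Under 19 other settings, *Bcat2*, *Bckdhb* and *Dbt* were lower in HFD with an unadjusted p below 0.05 in each, and *Ppm1k* in 18, the exception being the slide row as a term (limma p of 0.0647). In both slide row settings HFD 3 is the only HFD heart compared, so that they share their fold changes and assume that the lone heart varies like the others. For these 4 genes the HFD hearts were the 3 lowest, so that neither a left-out heart nor HFD 3 alone could turn the direction. The other filters, the t-test, the intensity trend and the replicate block left the fold changes as reported. The direction was thus bound to hold in most settings, where only the size or the p-value could move. Over all 19 settings the log2 fold changes ranged from −0.42 to −0.34 for *Bcat2*, −0.50 to −0.40 for *Bckdhb*, −0.63 to −0.46 for *Dbt* and −0.37 to −0.26 for *Ppm1k*. No probe of the 10 genes passed the adjustment in any setting, and the lowest adjusted p was 0.0542, for *Bckdhb* with an intensity trend and robust variances. The number of the 13 probes at an unadjusted p below 0.05 was 3 to 5 over all settings, and 4 to 5 with 1 heart left out. Over all 27590 probes it was 3275 as reported and 4001 with array weights in limma, and further numbers are given below.

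The 14 further genes named by rule kept their sign in all of these settings and none passed the adjustment. For those whose diets did not overlap, the sign was likewise bound to hold in most of the settings. An unadjusted p below 0.05 was reached in 8 of the 19 settings for *Mut*, 11 for *Mmachc*, 15 for *Aldh6a1* and *Foxo1*, 16 for *Slc7a8* and 18 for *Sesn1*.

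Values near 0 changed sign, and so did that of probe A_66_P127969 of *Bcat1*, at −0.42 as reported. *Bckdk* was at 0.011 with quantile normalization, 0.016 with normexp, 0.0073 in the authors' table, 0.033 both with the slide row as a term and in the row with both diets, and from −0.042 (without ND 3) to 0.034 (without ND 1) with a heart left out. *Bckdha* was at 0.037 in both slide row settings and from −0.17 to 0.065 with a heart left out. The *Mccc1* probes were at 0.049 and 0.067 in both slide row settings, and the dimmer one from −0.10 to 0.050 with a heart left out. Probe A_66_P127969 of *Bcat1* was at 0.17 in both slide row settings, and at −0.71 without HFD 3 (unadjusted limma p of 0.00286). Probe A_55_P1960157 of *Bcat1* ranged from −0.12 to 0.32 and A_55_P2079669 from −0.16 to 0.023 with a heart left out. The cause was not tested.

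Over all probes, the number past the adjustment, 4 as reported, was 2 with quantile normalization, 40 with normexp, 0 with no filter on dim probes (3438 at an unadjusted p below 0.05), 2 in the authors' table, 8 by the methods' t-test, 81 with an intensity trend and robust variances, 7 with array weights, 0 with the slide row as a term, 33 in the row with both diets, 1 with the atrial covariate and 0 to 5 with a heart left out. The number at an unadjusted p below 0.05, 3275 as reported, was 2136 with the slide row as a term and 2182 (without ND 1) to 3560 (without HFD 2) with a heart left out. With the replicate number as a block, 0 probes passed the adjustment in limma, 3020 had an unadjusted p below 0.05 and 4 of the 13 did. Same-numbered hearts did not deviate together in all pairs (r of −0.154, 0.147 and 0.190 over probes), so the numbers were not treated as pairs. The shift of *Bckdk* minus *Ppm1k* was 0.22 to 0.40 with a heart left out and 0.30 with normexp and in the authors' table. Probes near background, as those of *Bcat1*, can show only large differences.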
